A study of Mus musculus with 3 samples.

Results

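The ephrin, Slit and netrin guidance genes of adult mouse sciatic nerve were described across cell classes and across injury in single-cell libraries. The set held every measured gene named as an ephrin (Efna or Efnb), an Eph receptor (Epha or Ephb), a Slit, a Robo, a netrin (Ntn), a netrin-G (Ntng) or an Unc5 receptor. This gave 36 of the 21438 genes in the count tables: 5 ephrin-A, 3 ephrin-B, 7 EphA, 5 EphB, 2 Slit, 4 Robo, 4 netrin, 2 netrin-G and 4 Unc5 genes. Slit1 and Epha8 also fit the naming rule and had no row in any table.

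The cells were collected by Drop-seq, which captures single cells in droplets with barcoded beads and counts unique molecular identifiers (UMIs), 1 for each captured transcript. The injured beads library held cells of the distal nerve segment of adult wild-type CD1 mice, 9 days after the nerve was resected, cleaned with myelin removal beads. The injured FACS library held cells of the same segment and day from adult CD1 and C57BL/6 mice, sorted by flow cytometry with a gate that the labels do not give. The uninjured library held mesenchymal cells of uninjured nerve of adult wild-type CD1 mice, also cleaned with beads, and the authors deposited a matching table of the mesenchymal cells of the injured beads library. Collagenase and trypsin were used to dissociate the nerves of every group. How many animals were pooled is not given. Each group was 1 library, so no test of injury was possible, no p-value is given, and every interval covers counting error only.

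Guidance cues steer growing axons and migrating cells. Ephrins are membrane-bound ligands of the Eph receptor tyrosine kinases, and both partners can signal after contact between cells. Slits are secreted proteins that bind Robo receptors and usually repel. Netrins are secreted, laminin-related proteins that act through Dcc, neogenin and the Unc5 receptors, whereas netrin-Gs are tethered to the membrane and bind other partners. In a cut nerve, ephrin-B on fibroblasts is known to act on EphB2 of Schwann cells, and the same families also pattern blood vessels.

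Depth was uneven. The deposited tables held 4300 barcodes and 10859939 UMIs (injured beads), 2000 and 7122377 (injured FACS), 1289 and 4746263 (injured mesenchymal) and 880 and 2169121 (uninjured mesenchymal), with median UMIs per barcode from 1343 to 2798. All 1289 injured mesenchymal barcodes were in the beads table with the same counts, the beads and FACS tables shared 1 barcode, and no other pair shared any. Levels are CPM, the UMIs of a gene divided by all UMIs summed over a pool of cells and scaled to 1000000. Since transcripts were counted at their 3′ end and not scaled by length, each gene is compared with itself across pools only. Classes in the injured libraries are clusters named from fixed marker lists and are called "-like". In 24 of the 36 genes at least 1 class or mesenchymal subclass reached 20 CPM.

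In the injured beads library the guidance genes divided mainly among Schwann-like, endothelial-like and mesenchymal-like cells, and of the immune classes of 50 or more cells only B cell-like cells had more than 50 CPM of any member. A class was said to lead for a gene when it had at least 20 CPM and at least 2 times the next class, with a 95% interval of the ratio that excluded 1; classes of fewer than 50 cells, such as the 36 mast cell-like cells, were not ranked. Of 20 members with 20 CPM in some class, 9 had a leading class, beside 23.0% of all 10974 genes measured at that level. Schwann-like cells (462 cells, 1164886 UMIs) led for Epha5, Ntng1, Slit2 and Ntn5, beside 3.34% of all genes. Endothelial-like cells (575 cells, 2038778 UMIs) led for Robo4, Efna1, Ephb4 and Epha4, beside 3.36%. Mesenchymal-like cells (1101 cells, 4318832 UMIs) led for Ntn1, beside 3.15%.

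**Figure D1:**
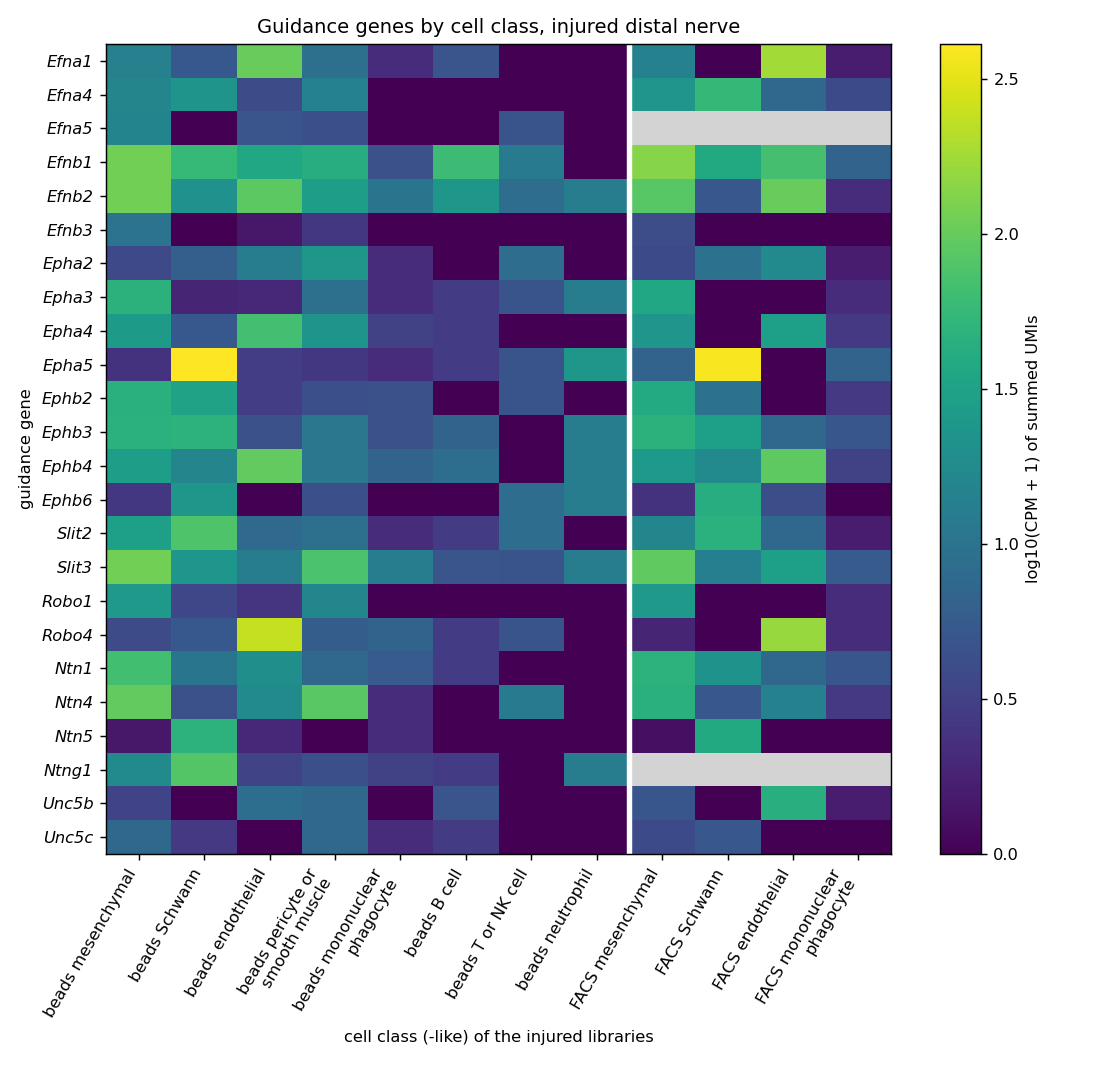
Levels of the 24 guidance genes that reached 20 CPM in some pool (rows) in cell classes of the injured beads library (left of the white line) and the injured FACS library (right), as log10(CPM + 1) of summed UMIs; grey marks a gene with no row in the FACS table. Epha5 and Ntn5 are high in Schwann-like cells and Robo4 and Efna1 in endothelial-like cells of both libraries, while Efnb1, Efnb2 and Slit3 spread over several classes.

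Epha5 encodes an EphA receptor that binds ephrin-A ligands and is best known from the brain (chr5:84054761-84417382, minus strand, GRCm38). Its level was 408 CPM in Schwann-like cells of the beads library (interval 372 to 446, 475 UMIs) and 387 CPM in those of the FACS library (312 to 474, 93 UMIs among 89 cells). Outside Schwann-like cells the beads library held 1.15 to 3.75 CPM in 6 of the 7 other classes; neutrophil-like cells had 23.0 CPM, which was 2 UMIs in 87050. The ratio to that next class was 4.15 on the log2 scale (2.29 to 7.20). In the mesenchymal tables Epha5 had 6 UMIs among injured cells and 0 among uninjured cells, where 3 UMIs would be 1.38 CPM. In the FACS library the mesenchymal-like and mononuclear phagocyte-like cells had 5.74 and 5.76 CPM, and the ratio of Schwann-like cells to the latter was 6.07 on the log2 scale (5.13 to 7.18). Schwann-like cells were thus the highest class for Epha5 in both libraries.

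Ntn5, a small netrin (chr7:45684022-45694556, plus strand), had 48.1 CPM in Schwann-like cells of the beads library (36.3 to 62.4, 56 UMIs) and 37.4 CPM in those of the FACS library (17.1 to 71.0, 9 UMIs). The next class in the beads library had 1.15 CPM (1 UMI), a log2 ratio of 5.38 (2.84 to 10.7). Exons of Ntn5 overlap those of Sec1 on the opposite strand, and the strand used in counting is not given, so its reads cannot be told apart from those of that gene. Ntng1, netrin-G1, had 79.8 CPM in Schwann-like cells (64.4 to 97.8, 93 UMIs) and 16.2 CPM in mesenchymal-like cells (70 UMIs), a log2 ratio of 2.30 (1.84 to 2.77). It has no row in the FACS table. The mesenchymal-like level averages over subclasses, and in perineurial-like cells of the same library Ntng1 had 305 CPM (234 to 390, 63 UMIs), above the Schwann-like level; Schwann-like cells led only among whole classes. Slit2, a Robo ligand, had 77.3 CPM in Schwann-like cells (62.1 to 95, 90 UMIs) and 28.5 CPM in mesenchymal-like cells (123 UMIs), a log2 ratio of 1.44 (1.03 to 1.84). This lead too held among whole classes only. In 85 cells of 1 epineurial-like cluster of the same library Slit2 had 126.7 CPM (78.4 to 193.6, 21 UMIs), an interval that overlaps the Schwann-like one. In the FACS library Slit2 again led in Schwann-like cells, with 45.7 CPM (22.8 to 81.8, 11 UMIs) against 14.9 CPM in mesenchymal-like cells. The lower mesenchymal levels of Slit2 and Ntng1 were 36.9% and 20.3% of their Schwann-like levels. The summed Schwann markers in mesenchymal-like cells stood at 1.69% of theirs. The part of Schwann cell RNA in the mesenchymal levels of Slit2 and Ntng1 was not tested.

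The promoters of 2 Schwann-led genes and 1 endothelial-led gene are shown because they differ widely in CpG content although each gene had a leading class in both injured libraries. Each runs from 250 bases before to 50 bases after the RefSeq transcript start (GRCm38.p6), 5′ to 3′ on the gene's strand, with every CG dinucleotide in capitals. Epha5 lies at chr5:84417333-84417632 (minus strand), Ntn5 at chr7:45683772-45684071 (plus strand) and Robo4 at chr9:37401722-37402021 (plus strand).
Epha5: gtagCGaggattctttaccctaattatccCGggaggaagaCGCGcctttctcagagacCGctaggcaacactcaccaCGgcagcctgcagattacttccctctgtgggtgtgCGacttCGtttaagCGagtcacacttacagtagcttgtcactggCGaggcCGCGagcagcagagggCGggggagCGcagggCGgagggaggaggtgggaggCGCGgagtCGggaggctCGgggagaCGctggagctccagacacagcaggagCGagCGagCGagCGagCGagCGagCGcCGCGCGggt
Ntn5: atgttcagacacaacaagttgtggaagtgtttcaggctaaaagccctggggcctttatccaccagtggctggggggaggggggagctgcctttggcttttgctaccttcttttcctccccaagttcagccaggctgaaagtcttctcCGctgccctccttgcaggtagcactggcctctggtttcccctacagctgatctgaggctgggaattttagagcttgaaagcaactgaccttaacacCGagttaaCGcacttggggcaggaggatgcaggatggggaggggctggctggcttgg
Robo4: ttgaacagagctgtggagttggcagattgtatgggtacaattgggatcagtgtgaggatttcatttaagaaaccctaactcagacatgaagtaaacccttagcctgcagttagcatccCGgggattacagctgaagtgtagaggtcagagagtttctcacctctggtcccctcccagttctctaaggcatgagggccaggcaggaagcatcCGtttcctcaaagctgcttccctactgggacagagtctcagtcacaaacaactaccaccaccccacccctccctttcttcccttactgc
The Epha5 window holds 30 CG dinucleotides, that of Ntn5 holds 3 and that of Robo4 holds 2. Among 38 promoters of 33 guidance genes with an entry, the median was 20, with a range from 2 (Robo4) to 41 (Slit3), beside a median of 7 over all 32851 promoters in the table. As few CG dinucleotides as in Robo4, or fewer, were in 23.3% of all promoters, and as few as in Ntn5 in 31.4%. Ntng1 and Slit2, also led by Schwann-like cells, hold 28 and 30. The files measure no methylation or binding, so these counts describe the sequence alone.

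Robo4, a Robo of blood vessels that steadies the endothelial barrier (chr9:37401897-37415115, plus strand), had 242 CPM in endothelial-like cells of the beads library (221 to 264, 493 UMIs). Its next class had 5.76 CPM (5 UMIs), a log2 ratio of 5.39 (4.16 to 7.02). In the FACS library endothelial-like cells had 162 CPM (120 to 213, 50 UMIs); that cluster of 83 cells was led by the pericyte gene Rgs5 beside the endothelial genes Aqp1 and Pecam1. Efna1, an ephrin-A ligand found on vessels, had 101 CPM in endothelial-like cells of the beads library (87.7 to 116, 206 UMIs) and 12.7 CPM in mesenchymal-like cells, a log2 ratio of 2.99 (2.55 to 3.44). The FACS endothelial-like cells had 178 CPM of Efna1 (134 to 231, 55 UMIs). Ephb4, the receptor typical of veins, had 96.1 CPM (83.1 to 111, 196 UMIs) in endothelial-like cells and 27.1 CPM in mesenchymal-like cells, a log2 ratio of 1.83 (1.49 to 2.17). In the FACS library the levels were 90.5 CPM (60.2 to 131, 28 UMIs) and 25 CPM, so both libraries gave the same order. Exons of Ephb4 overlap those of Zan on the opposite strand. Epha4, an Eph receptor that binds ephrins of both classes, had 66.7 CPM in endothelial-like cells (56.0 to 78.9, 136 UMIs) and 25.5 CPM in mesenchymal-like cells, a log2 ratio of 1.39 (1.02 to 1.76). In the FACS library its levels were 29.1 and 22.1 CPM, a log2 ratio of 0.40 (-0.78 to 1.40), so no class led there.

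Efnb2, the ephrin typical of arteries and a ligand of Ephb4, differed between the 2 endothelial-like clusters. It had 109 CPM (162 UMIs) in the cluster led by Cldn5, Kdr and Sox17 (478 cells) and 37.8 CPM (21 UMIs) in the cluster led by the adhesion molecules Sele and Selp (97 cells), a log2 ratio of 1.53 (0.87 to 2.26). Ephb4 had 93.1 and 104 CPM in the same clusters, a log2 ratio of -0.16 (-0.62 to 0.30). Ephb1, another EphB receptor, had 14.2 and 30.6 CPM (log2 ratio -1.11, -2.10 to -0.10). Of 7 members with 20 CPM in either cluster, Efnb2 was the 1 that passed the size rule upward in the Sox17-led cluster and Ephb1 the 1 that passed it downward, beside 5.89% and 3.44% of 7611 genes. Robo4 (264 and 183 CPM), Efna1 (112 and 71.9 CPM) and Epha4 (70.1 and 57.6 CPM) stayed under a 2-fold difference.

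Ephrin-B and Slit3 transcripts were shared by several classes. Efnb1, the ephrin-B or EphB gene with the most UMIs in the beads library (797), had 112 CPM in mesenchymal-like cells (102 to 122, 482 UMIs) and 60.2 CPM in B cell-like cells (40.9 to 85.4, 31 UMIs). It had 54.9 CPM in Schwann-like, 41.3 CPM in pericyte- or smooth muscle-like, 35.8 CPM in endothelial-like and 3.46 CPM in mononuclear phagocyte-like cells. Efnb2 had 113 CPM in mesenchymal-like cells (103 to 123, 487 UMIs) and 89.8 CPM in endothelial-like cells (77.2 to 104, 183 UMIs), a log2 ratio of 0.33 (0.08 to 0.58). Neither ephrin-B gene had a leading class in the beads library.

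Slit3, the Slit or Robo gene with the most UMIs (705), had 112 CPM in mesenchymal-like cells (102 to 123, 484 UMIs), 72.6 CPM in pericyte- or smooth muscle-like cells (52.8 to 97.5, 44 UMIs) and 22.3 CPM in Schwann-like cells. That Schwann-like level was 19.9% of the mesenchymal-like level, and the summed mesenchymal markers there stood at 19.2%. The part of mesenchymal RNA in Schwann-like cells was not tested for Slit3 or for any other member. Efnb2 (17.5%) and Ntn1 (14.6%) stood below those markers, whereas Ephb2 stood at 69.2% and Efnb1 at 49.2%. In the FACS library Ephb2 stood at 21.8% (2 UMIs), Efnb1 at 27.5% (9 UMIs), Ntn1 at 43.9% (5 UMIs) and Slit3 at 13.5% (3 UMIs). The markers stood at 19.7% there, and Efnb2 was highest in endothelial-like cells. In mononuclear phagocyte-like cells Slit3 had 11.5 CPM (5.53 to 21.2, 10 UMIs), 10.3% of its mesenchymal-like level beside 4.06% for the markers. In those of the FACS library it stood at 4.97% (8 UMIs), beside 3.87% for the markers.

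Netrins had another distribution. Ntn1, netrin-1, had 64.6 CPM in mesenchymal-like cells (57.2 to 72.6, 279 UMIs) and 19.1 CPM in endothelial-like cells (39 UMIs), a log2 ratio of 1.76 (1.27 to 2.28). In the FACS library its 47.3 CPM in mesenchymal-like cells (165 UMIs) stood beside 20.8 CPM in Schwann-like cells (5 UMIs), a log2 ratio of 1.19 (-0.07 to 2.83), and no class led. Ntn4, a netrin of basement membranes and the netrin or Unc5 gene with the most UMIs (539), had 94.5 CPM in mesenchymal-like cells (85.5 to 104, 408 UMIs) and 85.8 CPM in pericyte- or smooth muscle-like cells (64.1 to 113, 52 UMIs). Of the latter, 28 UMIs lay in 48 cells led by the smooth muscle gene Myh11, at 225 CPM, and 24 lay in 231 cells led by the pericyte gene Rgs5, at 49.8 CPM. Slit3 had the same order in these clusters, 153 and 51.9 CPM. For the Rgs5-led over the Myh11-led cluster the log2 ratios were -2.18 (-3.03 to -1.34) for Ntn4 and -1.56 (-2.48 to -0.62) for Slit3. Efna1 (1 and 4 UMIs) was also lower in the Rgs5-led cluster and Efnb1 (24 and 1 UMIs) higher, which made 3 lower and 1 higher of 8 members at 20 CPM, beside 6.75% and 8.03% of 7924 genes.

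**Figure D2:**
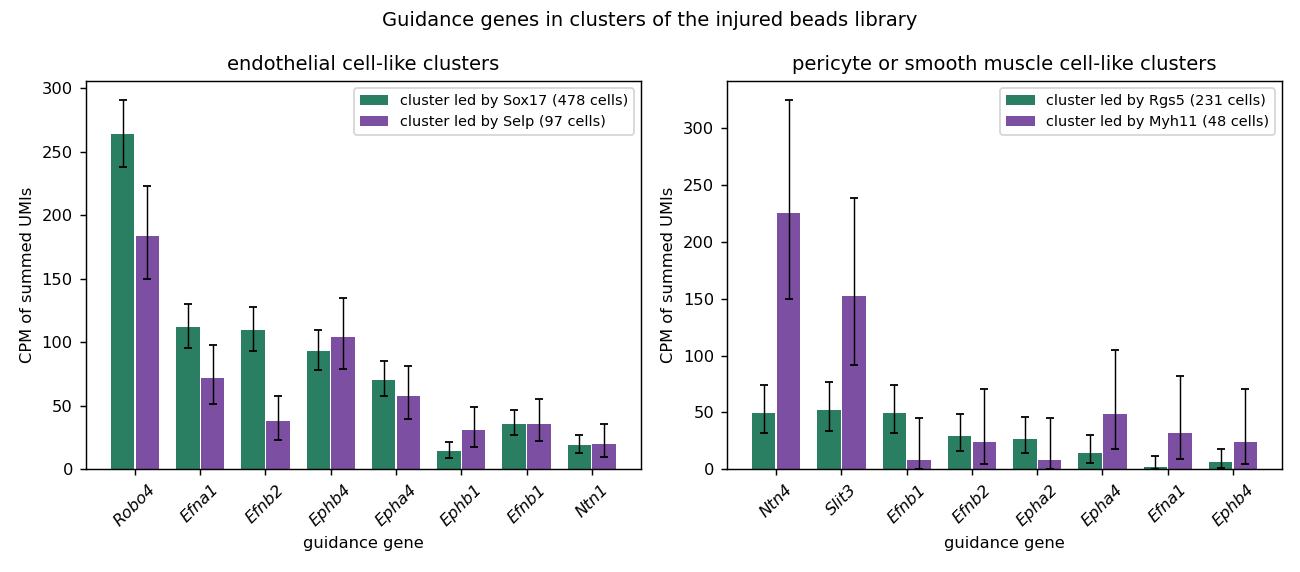
CPM of summed UMIs (vertical axes, from 0) of guidance genes in the 2 endothelial-like clusters (left) and the 2 pericyte- or smooth muscle-like clusters (right) of the injured beads library; lines are exact Poisson 95% intervals covering counting error only. Efnb2 is higher in the Sox17-led cluster, the intervals of Ephb4 overlap in the endothelial-like clusters, and Ntn4 and Slit3 are higher in the Myh11-led cluster.

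The receptors Robo1, Ephb2 and Epha3 were, like Slit3, Efnb1 and Efnb2, highest in mesenchymal-like cells of the beads library. Robo1, a Slit receptor, had 24.8 CPM in mesenchymal-like cells (20.3 to 29.9, 107 UMIs), 14.9 CPM in pericyte- or smooth muscle-like cells (9 UMIs) and 2.58 CPM in Schwann-like cells (3 UMIs). Ephb2, a receptor for ephrin-B ligands, had 44.7 CPM in mesenchymal-like cells (38.6 to 51.5, 193 UMIs) and 30.9 CPM in Schwann-like cells (21.6 to 42.8, 36 UMIs), a log2 ratio of 0.53 (0.01 to 1.09). Epha3, an EphA receptor, had 46.8 CPM in mesenchymal-like cells (40.5 to 53.7, 202 UMIs); it had no leading class beside 1 UMI in neutrophil-like cells, which came to 11.5 CPM, and had one when that class was left out. The Unc5 receptors stayed under 20 CPM in every class of 50 or more cells of the beads library, and the highest, Unc5b in endothelial-like cells, had 7.85 CPM (16 UMIs). In the 36 mast cell-like cells Unc5b had 3 UMIs, or 53.4 CPM (11 to 156). Unc5b had 42.0 CPM in the FACS endothelial-like cells (22.4 to 71.9, 13 UMIs).

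Of the other members that reached 20 CPM, Ephb3, an EphB receptor, was highest in the beads library in Schwann-like cells (47.2 CPM, with 45.2 CPM in mesenchymal-like cells). Efna4 and Ephb6, an Eph receptor without kinase activity, were also highest in Schwann-like cells, at 21.5 and 23.2 CPM, and Epha2 in pericyte- or smooth muscle-like cells at 23.1 CPM (14 UMIs). Efnb3 and Unc5c reached 20 CPM only in perineurial-like cells of the mesenchymal tables, and Efna5 there and in uninjured epineurial-like cells (20.8 CPM). The remaining 12 members (Efna2, Efna3, Epha1, Epha6, Epha7, Ephb1, Ntn3, Ntng2, Robo2, Robo3, Unc5a and Unc5d) stayed at 0.445 to 18.6 CPM in their highest class or subclass pool. Exons of Efna4 and Unc5c overlap those of 4731419I09Rik and Gm15688 on the opposite strand, so their reads cannot be told apart either. Exons of Ntn3 and Ntng2 share a strand with those of Tbc1d24 and 6530402F18Rik, so the low counts of Ntn3 and Ntng2 are uncertain too.

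The FACS library had only 4 classes of 50 or more cells, so a class could lead there against fewer others. In it 15 of 19 members at 20 CPM had a leading class, beside 26.3% of 9561 genes. Schwann-like cells led for Epha5, Ntn5, Slit2, Efna4 and Ephb6 (7.20% of all genes), endothelial-like cells for Robo4, Efna1, Ephb4 and Unc5b (7.01%), and mesenchymal-like cells for Efnb1, Epha3, Ephb2, Ntn4, Robo1 and Slit3 (4.91%). Of the 8 beads-library genes led by Schwann-like or endothelial-like cells, Epha4 had no leading class in the FACS library and Ntng1 had no row.

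Mesenchymal cells of the injured and the uninjured nerve were then compared in the authors' tables, to see which guidance genes differed between the 2 pools. A member passed the size rule with at least 20 CPM in the higher pool, at least a 2-fold ratio and an interval that excluded 1. There were 13 members with 20 CPM in either pool. Of these 5 were higher in the injured pool (Efnb2, Epha3, Ephb2, Robo1 and Slit2), 2 were lower (Ntn1 and Ntng1) and 6 were neither, beside 8.99% of all 7506 genes at that level higher and 6.26% lower. The median log2 ratio was 0.65 over the 13 members and 0.20 over all 7506 genes. The 2 pools held different subclasses, and with endoneurial-like, epineurial-like and perineurial-like cells given the same weight in both pools 1 member was higher (Slit2) and 1 lower (Ntng1), beside 5.54% and 4.76% of 7582 genes. This weighting left out the differentiating-like and unnamed cells, which held 47.4% and 4.38% of the injured UMIs. Under it Robo1, Epha3 and Epha4 fell below 20 CPM, and Efna1, Efna5 and Efnb3 reached it. The medians were then -0.10 over this changed set of members at 20 CPM and 0.05 over all genes at that level.

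**Figure D3:**
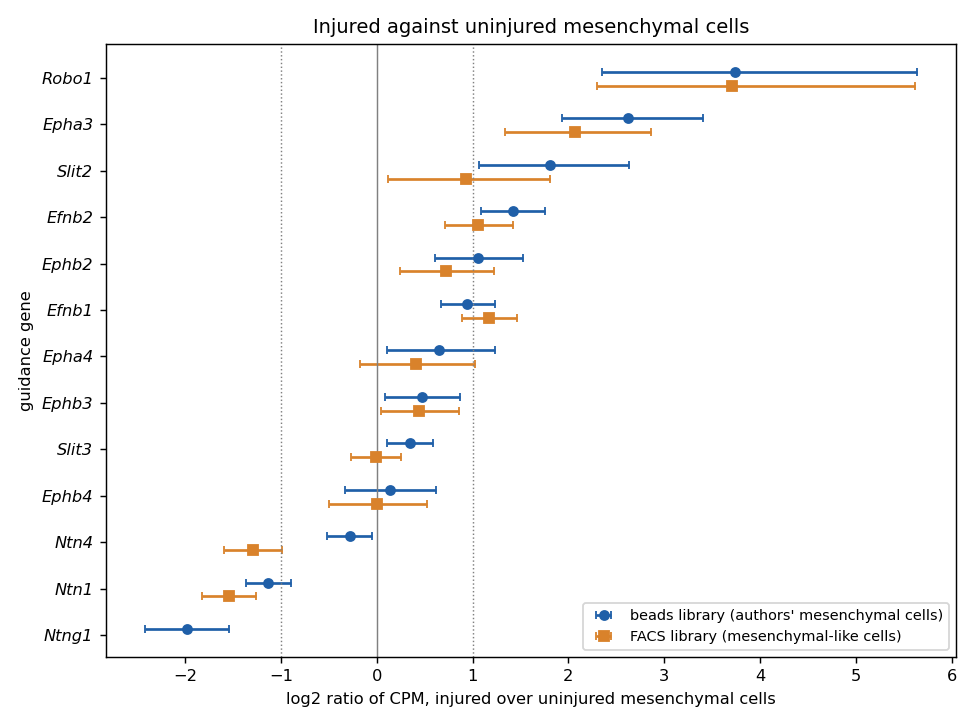
Log2 ratios of CPM in injured over uninjured mesenchymal cells (horizontal axis) for the 13 guidance genes with 20 CPM in either pool, from the beads library (circles) and the FACS library (squares); lines are 95% intervals covering counting error only and dotted lines mark 2-fold. Both series share the uninjured pool; Robo1 and Epha3 lie farthest to the right, and Ntn1 lies beyond 2-fold to the left in both.

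Robo1 had 117 UMIs in the injured pool (24.7 CPM, 20.4 to 29.5) and 4 in the uninjured pool (1.84 CPM, 0.502 to 4.72), a log2 ratio of 3.74 (2.35 to 5.64). Epha3 had 51.2 CPM (45 to 58.1, 243 UMIs) and 8.30 CPM (4.92 to 13.1, 18 UMIs), a log2 ratio of 2.63 (1.93 to 3.40). Slit2 had 27.4 CPM (22.9 to 32.5, 130 UMIs) and 7.84 CPM (4.57 to 12.5, 17 UMIs), a log2 ratio of 1.81 (1.07 to 2.63). A Slit and a Slit receptor were thus both higher in injured mesenchymal cells. Efnb2 had 110 CPM (101 to 120, 521 UMIs) and 41.0 CPM (33.0 to 50.5, 89 UMIs), a log2 ratio of 1.42 (1.09 to 1.76). Its receptor Ephb2 had 47.8 CPM (41.8 to 54.5, 227 UMIs) and 23.1 CPM (17.1 to 30.4, 50 UMIs), a log2 ratio of 1.05 (0.61 to 1.52). The Ephb2 ratio sat at the 2-fold limit and was 0.93 with DESeq2 size factors or TMM factors, which shifted every ratio by -0.12 and -0.13.

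Of the genes lower after injury, Ntn1 had 298 UMIs in each pool, which came to 62.8 CPM (55.9 to 70.3) in injured and 137 CPM (122 to 154) in uninjured cells, a log2 ratio of -1.13 (-1.37 to -0.89). The call was lost without the 5% of cells with the most UMIs in each pool (-0.98) and with every cell at the same weight (-0.61). Ntng1 had 14.5 CPM (11.3 to 18.4, 69 UMIs) and 57.2 CPM (47.5 to 68.2, 124 UMIs), a log2 ratio of -1.98 (-2.42 to -1.54). Among members that did not pass, Efnb1 had 116 and 60.4 CPM, a log2 ratio of 0.94 (0.67 to 1.23), just under 2-fold. Slit3 had 118 and 93.1 CPM (0.34, 0.11 to 0.58), Ntn4 had 89.5 and 109 CPM (-0.28, -0.51 to -0.05), Epha4 had 26.1 and 16.6 CPM (0.65, 0.11 to 1.23), Ephb3 had 47.8 and 34.6 CPM (0.47, 0.09 to 0.86) and Ephb4 had 27.4 and 24.9 CPM (0.14, -0.33 to 0.62).

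Markers of other cells also differed between the pools. Of the macrophage or monocyte markers, 8 were measured, with a sum of 288 CPM in the injured pool (8 of 8 above 0) and 23.5 CPM in the uninjured pool (6 of 8, with C1qa and Fcgr1 at 0). The 9 Schwann markers summed to 117 and 380 CPM, the 8 endothelial markers to 147 and 206 CPM the 5 erythroid markers to 112 and 1612 CPM and the 6 cell cycle genes to 292 and 10.6 CPM, while the 7 mesenchymal markers gave 59627 and 96039 CPM. With the 431 injured and 236 uninjured cells that held at most 1 UMI of other classes' markers, 5 members were higher (Efnb2, Epha3, Robo1, Slit2 and, in place of Ephb2, Ephb3) and 1 lower (Ntng1), beside 9.20% and 6.71% of 7780 genes. Ephb2 was then at 0.26, Ephb3 at 1.48 and Ntn1 at -0.61. The limit was a count of UMIs and not a share, so it also favoured cells with few UMIs. The part of cells holding such markers was therefore not tested for any of these ratios.

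The FACS library gave a second injured pool of 496 mesenchymal-like cells (3486447 UMIs), which differed from the uninjured pool in isolation and strain as well. Of 12 members at 20 CPM in either pool, 5 were higher (Efna4, Efnb1, Efnb2, Epha3 and Robo1) and 2 lower (Ntn1 and Ntn4), beside 11.8% and 9.25% of 7446 genes, with medians of 0.59 over the members and 0.19 over all. The comparison shares the uninjured pool with the one above, so the 2 are given side by side. Robo1 had 24.1 CPM in the FACS pool (84 UMIs), a log2 ratio of 3.71 (2.30 to 5.62), and Epha3 had 34.7 CPM, a log2 ratio of 2.06 (1.34 to 2.87). Efnb2 had 85.5 CPM, a log2 ratio of 1.06 (0.71 to 1.42), and Efnb1 had 136 CPM, a log2 ratio of 1.17 (0.89 to 1.46). Efna4, an ephrin-A ligand, had 22.1 CPM, a log2 ratio of 2.41 (1.41 to 3.59), and its 14.1 CPM in the beads pool fell short of 20 CPM. The exon overlap of Efna4 with 4731419I09Rik limits this value. Ntn1 had 47.3 CPM, a log2 ratio of -1.54 (-1.82 to -1.26). Ntn4 had 44.5 CPM, a log2 ratio of -1.29 (-1.59 to -0.99), where the beads pool gave -0.28. Ephb2 (0.73, 0.25 to 1.23) and Slit2 (0.93, 0.11 to 1.81) stayed under 2-fold. This pool held 1015 CPM of macrophage or monocyte markers, whose part was not tested. With the 177 cells of the unnamed cluster led by Car3, Cfd, Sfrp2 and Adipoq added, 3 members were higher, beside 10.7% of 7392 genes, and Efnb1 (0.99) and Efnb2 (0.83) were under 2-fold.

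Nerve mesenchyme is made up of endoneurial cells around the axons, perineurial cells that form the sheath of each fascicle and epineurial cells of the outer coat. A further subclass, led by Dlk1, Mest and Postn and called differentiating-like here, was nearly all from the injured library. Clusters made without guidance genes gave 254 injured and 424 uninjured endoneurial-like cells, 200 and 384 epineurial-like cells, 71 and 66 perineurial-like cells, and 502 and 2 differentiating-like cells; 262 and 4 cells stayed unnamed. The endoneurial-like cells of the 2 libraries fell into separate clusters, with 253 of the injured cells in one and all 424 uninjured cells in another, so within this subclass library and cluster cannot be told apart. Their median UMIs per cell were 6131 and 2183.

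Within the mesenchymal tables Ntng1 was mainly found in perineurial-like cells. These held 92.7% of its UMIs in the uninjured and 91.3% in the injured table, beside 6.38% and 4.35% of all UMIs. Their level was 831 CPM (686 to 998, 115 UMIs) in uninjured and 305 CPM (234 to 390, 63 UMIs) in injured cells, a log2 ratio of -1.45 (-1.91 to -0.99). Of 14 members at 20 CPM in this subclass, Ntng1 was the 1 that passed the size rule downward and none passed upward, beside 5.01% of 8047 genes lower and 3.72% higher. The 8 perineurial markers, summed over the same cells, were at 7598 CPM in uninjured and 4619 CPM in injured cells. Ntn1 was also highest here, but with similar levels, 542 CPM (426 to 680) uninjured and 523 CPM (429 to 631) injured, a log2 ratio of -0.05 (-0.49 to 0.39). Ntn4 had 398 and 315 CPM (-0.34, -0.88 to 0.21). Efnb3, the ephrin-B also known from midline neurons, had 130 and 121 CPM (18 and 25 UMIs) and at most 4.89 CPM in any other named subclass of 20 or more cells. Unc5c, a netrin receptor, had 43.4 and 19.4 CPM from 6 and 4 UMIs, a ratio that the counts could not resolve (-1.16, -3.43 to 0.91). Efna5, an ephrin-A ligand, had 28.9 and 62.9 CPM from 4 and 13 UMIs. Efnb1 had 224 and 189 CPM (31 and 39 UMIs) and Ephb3 130 and 77.5 CPM (18 and 16 UMIs). Ephb2 had 72.3 and 77.5 CPM (10 and 16 UMIs) and Ephb4 57.8 and 58.1 CPM (8 and 12 UMIs).

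**Figure D4:**
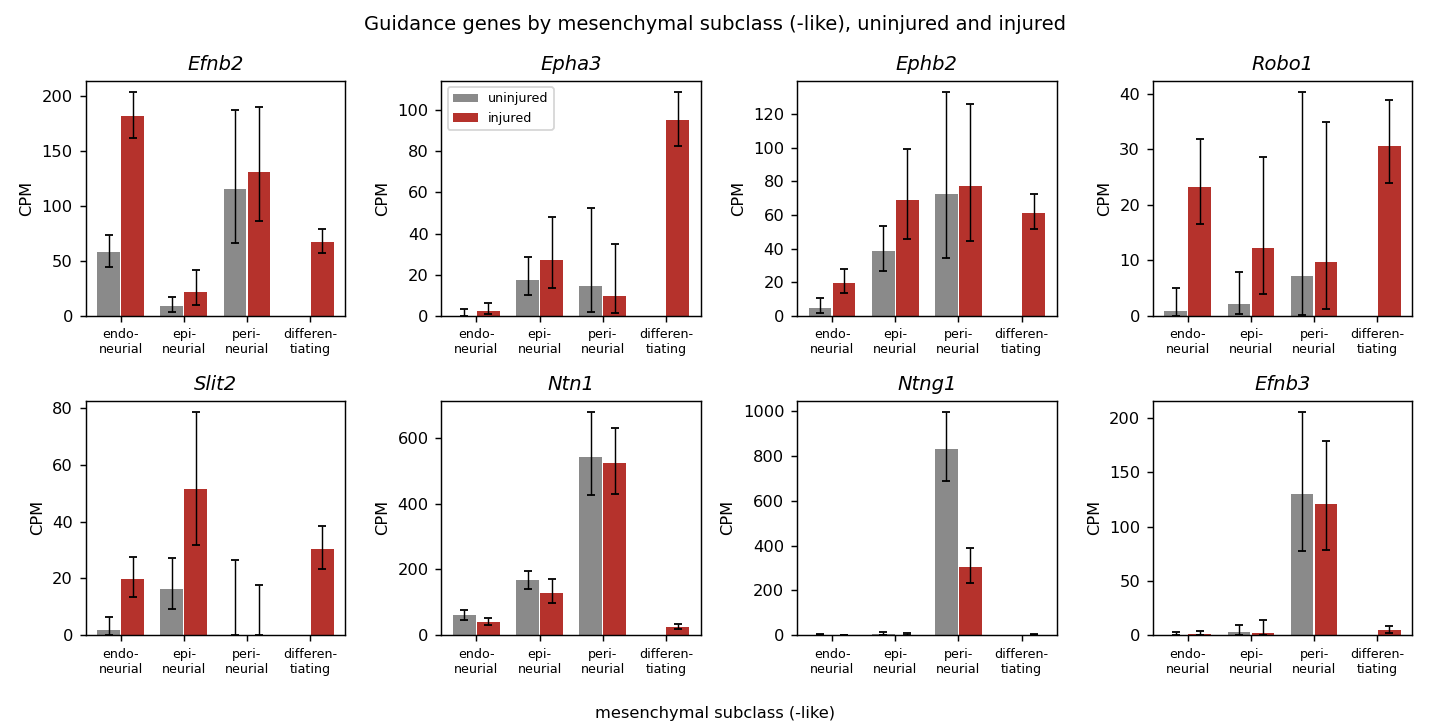
CPM of summed UMIs (vertical axes, each from 0) of 8 guidance genes in mesenchymal subclasses of the uninjured (grey) and injured (red) tables; lines are exact Poisson 95% intervals covering counting error only, and the 2 uninjured differentiating-like cells are left out. Ntng1, Ntn1 and Efnb3 are highest in perineurial-like cells, Efnb2 is higher in injured than uninjured endoneurial-like cells, and Epha3 is highest in injured differentiating-like cells.

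Efnb2 passed the size rule in endoneurial-like cells, with 182 CPM (162 to 204, 305 UMIs) in injured and 57.9 CPM (44.6 to 73.9, 64 UMIs) in uninjured cells, a log2 ratio of 1.65 (1.26 to 2.07). In perineurial-like cells it had 131 and 116 CPM, a log2 ratio of 0.18 (-0.77 to 1.17), and in epineurial-like cells 22.1 and 8.75 CPM from 9 and 8 UMIs, a log2 ratio of 1.33 (-0.21 to 2.91). The difference between subclasses was not tested. Robo1 had 39 UMIs in injured and 1 in uninjured endoneurial-like cells, 23.3 and 0.904 CPM, a log2 ratio of 4.69 (2.12 to 10.03). These were the 2 members that passed the size rule upward there, of 8 at 20 CPM, and none passed downward, beside 10.9% and 8.93% of 7063 genes. Just under the 20 CPM limit, Slit2 had 19.7 and 1.81 CPM (33 and 2 UMIs) and Ephb2 had 19.7 and 4.52 CPM (33 and 5 UMIs). In epineurial-like cells Slit2 had 51.5 CPM (31.9 to 78.7, 21 UMIs) in injured and 16.4 CPM (9.18 to 27.1, 15 UMIs) in uninjured cells, a log2 ratio of 1.65 (0.63 to 2.71). It was the 1 of 13 members that passed upward in this subclass, with none downward, beside 5.40% and 2.68% of 7200 genes. All 21 injured UMIs of Slit2 lay in 1 of the 3 epineurial-like clusters, led by Cxcl13, Dkk2 and Fgf9. Slit2 had 126.7 CPM (78.4 to 193.6) in 85 injured cells and 46.0 CPM (23.8 to 80.4, 12 UMIs) in 103 uninjured cells of that cluster. These intervals overlap only between 78.4 and 80.4 CPM, and the size rule was not applied within the cluster. The cluster also made up more of the injured epineurial-like cells (85 of 200) than of the uninjured (103 of 384), and the part of this share was not tested. Slit3 was at 169 and 175 CPM in the epineurial-like cells (-0.05, -0.48 to 0.37). Slit2 was not detected in perineurial-like cells of either table, where the intervals of 0 UMIs reach 17.9 CPM in the injured and 26.7 CPM in the uninjured cells.

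Epha3 was highest in the differentiating-like cells among named subclasses. They held 88.1% of its 243 injured UMIs and 47.4% of all injured UMIs, with Epha3 at 95.1 CPM (82.8 to 109), beside 27.0 CPM in epineurial-like, 9.68 CPM in perineurial-like and 2.39 CPM in endoneurial-like cells. The injured unnamed cells had 57.7 CPM of Epha3 (29.8 to 101, 12 UMIs), and 59 injured cells of the epineurial-like cluster led by Comp and Inmt had 58.9 CPM (25.4 to 116, 8 UMIs), with intervals that overlap that of differentiating-like cells. Of its 18 uninjured UMIs, 16 lay in epineurial-like cells, at 17.5 CPM. Within epineurial-like cells its log2 ratio was 0.62 (-0.63 to 1.82), and with the 3 shared subclasses at the same weight it was 0.29. Robo1 had 59.0% of its 117 injured UMIs in differentiating-like cells (30.7 CPM) and 33.3% in endoneurial-like cells, subclasses that held 47.4% and 35.3% of all injured UMIs. Slit3 (166 CPM), Efnb1 (137 CPM), Ephb2 (61.3 CPM) and Slit2 (30.2 CPM) were measured in differentiating-like cells as well, whereas Ntn1 there was at 25.8 CPM. Differentiating-like cells were not the highest subclass for Efnb1 or Ephb2, which had 189 and 77.5 CPM in injured perineurial-like cells. For Ntn1 the same-weight log2 ratio was -0.15, and the ratios within subclasses were -0.58 (-1.09 to -0.07) in endoneurial-like, -0.36 (-0.84 to 0.09) in epineurial-like and -0.05 in perineurial-like cells. The same-weight ratios of Efnb2, Ephb2 and Robo1 were 0.88, 0.53 and 2.13, the last with under 20 CPM in both pools.

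Other genes of the pathways were taken from fixed lists and compared between the injured and uninjured mesenchymal tables by the same size rule. Of 16 other Eph or ephrin genes, 8 had 20 CPM; 3 were higher (the adaptors Grb10, 1.05, and Nck2, 1.58, and the Ras GTPase-activating Rasa1, 1.21) and 2 lower (Chn1, a Rac GTPase-activating protein downstream of Epha4, -1.26, and Sipa1l1, -1.10). Of 11 other Slit and Robo genes, 8 had 20 CPM; 1 was higher (Gpc1, a heparan sulfate proteoglycan that binds Slit, 1.69) and none lower. Of 17 measured netrin pathway genes, 9 had 20 CPM; 1 was higher (Neo1, the netrin and RGM receptor neogenin, 1.09) and 1 lower (Ablim1, -1.26). Dcc, the classical netrin receptor, had 1 UMI in each table. Of all 7506 genes at that level, 8.99% were higher and 6.26% lower. The median log2 ratios of the 3 lists were 0.31, 0.45 and 0.02, beside 0.20 over all 7506 genes.

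A last fixed list, for the EphB2 response of Schwann cells, held Sox2, Cdh2 (N-cadherin) and Ctnnb1 (beta-catenin). Whether their RNA levels follow EphB2 was not tested. In the injured beads library Sox2 had 290 CPM in Schwann-like cells (338 UMIs), beside 5.82 CPM in the next class. Cdh2 was highest in pericyte- or smooth muscle-like cells (150 CPM, with 78.1 CPM in Schwann-like cells) and Ctnnb1 in endothelial-like cells (504 CPM). In the mesenchymal tables Sox2 had 8 injured and 3 uninjured UMIs, while Cdh2 had 21.1 and 3.69 CPM, a log2 ratio of 2.51 (1.48 to 3.77), and Ctnnb1 had 382 and 165 CPM, a log2 ratio of 1.21 (1.05 to 1.38). Of the other Slit and Robo genes, the intracellular Slit effector Srgap2 (106 CPM), Gpc1 (558 CPM) and Dag1, the Slit-binding dystroglycan (455 CPM), were highest in Schwann-like cells. So were Srgap1, Abl2 and Arhgap39, though the interval of the Abl2 ratio to the next class included 1. Sdc1 (347 CPM) and Enah were highest in pericyte- or smooth muscle-like, Abl1 in mononuclear phagocyte-like, Usp33 in B cell-like and Srgap3 in T or NK cell-like cells. Of the Robo receptors, Robo2 had 16.3 CPM (19 UMIs), Robo4 4.29 CPM (5 UMIs) and Robo1 2.58 CPM (3 UMIs) in Schwann-like cells of the beads library.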

How the data were processed

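The authors deposited UMI counts per gene and cell from Drop-seq, raw and without normalization per the values; the submitters' processing notes name the build mm10, while an aligner is not given in the sources used here. Members and lists were chosen with earlier results of these data known. Cells with at least 200 genes were clustered per injured library (scanpy 1.11.5, 2000 variable genes without guidance genes, 30 components, 15 neighbours, Leiden resolution 0.8) and named by the fixed marker lists. Macrophage or monocyte and dendritic clusters were joined. Scrublet marked 2 of 4111 and 5 of 1914 cells, too few to have worked, so doublets remain. The mesenchymal tables were clustered together, also without the subclass markers. Counts were summed per pool and scaled to CPM. Levels have exact Poisson 95% intervals, and ratios exact conditional binomial intervals; PCR and sampling between animals are not covered. A gene with no row in the uninjured table was taken as 0, and one with no row in the FACS table has no value. The code was tested on simulated counts. Full values are given for members past the size rule after injury, with a leading class, or with the most UMIs of their ligand and receptor family; others are given by highest class or range. Pairs of clusters within a class and the comparison with class markers were chosen after seeing the data. Scalings used edgeR 4.0.16 and DESeq2 1.42.0. Positions are from GENCODE vM21 on GRCm38, and promoters from RefSeq; Efnb3, Ntn1 and Unc5d had no promoter entry.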

Additional observations from a re-analysis of the deposited data

How the results depend on the processing

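Under other settings, 3 of them chosen after seeing the data, no result changed direction among those called, and 52 counts and values under them stayed close to the one reported, with 9 exceptions. These were as follows. Members higher in injured mesenchymal cells numbered 2 with a limit of 50 CPM and 1 with subclasses at the same weight, in place of 5. Members lower numbered 1, in place of 2, without cells holding markers of other classes, without the 5% of cells with the most UMIs, with the mean of per-cell CPM, and with subclasses at the same weight. For the FACS pool 2 were higher with a limit of 50 CPM and 3 with the unnamed Adipoq cluster added, in place of 5. Shares of all genes were not computed for the 50 CPM limits, the removal of cells with the most UMIs or per-cell CPM. Those counts therefore cannot show whether the members moved more than all genes did. The number of members with a leading class was 15 with the FACS library, in place of 9, where fewer classes are compared. The cause was not tested, except that the limit and the subclass weights act by their construction. Among single genes and medians, 274 values kept their side of the rule, 25 lost and 3 gained a call, and 21 moved without one. With 1 library a group no replicate could be left out. No paired analysis was possible because the labels give no replicate numbers. As a measure of depth, 3 counts are 0.632 CPM in the injured and 1.38 CPM in the uninjured mesenchymal table, and 34.5 CPM in neutrophil-like cells.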

Other observations

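In the injured beads library a cluster of 124 cells led by cell division genes kept no class name, as its mesenchymal score was close to that of another class. It held guidance genes of more than 1 class: Efnb1 at 116 CPM (72 UMIs), Slit3 at 97.9 CPM (61 UMIs), Ephb2 at 54.6 CPM (34 UMIs), Slit2 at 48.2 CPM (30 UMIs) and Epha5 at 43.3 CPM (27 UMIs). Ntng1 had 2 UMIs there. Another unnamed cluster of 298 cells, with a median of 520 UMIs, had 208 CPM of Slit3 (49 UMIs), 174 CPM of Efnb1 (41 UMIs) and 106 CPM of Epha3 (25 UMIs). These cells entered no comparison between classes, but 253 of the 422 unnamed cells are in the authors' injured mesenchymal table and so in the comparison with uninjured cells.

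Ephb1 was restricted in another way. It had 0 UMIs in both mesenchymal tables, where 3 UMIs would be 0.632 CPM in the injured and 1.38 CPM in the uninjured cells. In endothelial-like cells of the beads library it had 18.6 CPM (13.2 to 25.6, 38 UMIs). Its exons overlap those of Gm26846 on the opposite strand. Robo2 had 19 of its 37 UMIs in Schwann-like cells.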
